A study of Mus musculus with 4 samples.

Results

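The genes described here are *Msi1* and *Msi2*, *Numb* and *Numbl*, the receptor genes *Notch1* and *Notch2*, and the Notch target *Hes1*. They were followed in mouse LSK cells, the Lin- Sca-1+ c-Kit+ fraction of the bone marrow that holds hematopoietic stem cells (HSCs) and early multipotent progenitors. Members were all non-control probes that the array's design names for one of these 7 of its 28095 gene names, with every probe of a gene kept apart. This gave 16 of the 41174 non-control probes on the array: 5 for *Msi2*, 3 for *Notch2*, 2 each for *Msi1*, *Numb* and *Notch1*, and 1 each for *Numbl* and *Hes1*. Of the 16, 14 were bright enough to be tested.

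The study asked what the loss of the homeodomain transcription factor Meis1 does to adult blood formation, and the arrays asked how it alters gene expression in LSK cells. Meis1-deficient cells came from Mx1-Cre+ Meis1 fl/fl mice and control cells, labelled wild type, from Mx1-Cre negative Meis1 fl/fl mice, so both groups carried loxP sites around exon 8 of both *Meis1* alleles. All mice were on the C57BL/6J background and were 4 to 8 weeks old at treatment, and the LSK cells were collected 1 week after poly(I:C). Each genotype had 2 pools of 6 mice and each pool was hybridized to 1 array, named here Meis1 KO array 1 or 2 and control array 1 or 2 after the labels. Poly(I:C) was given in 4 injections of 1.5 µg per g body weight. It induces interferon, which turns on the *Mx1* promoter that drives Cre, and this promoter is not restricted to blood cells. The sources describe the control mice both as poly(I:C)-treated and as sham-treated. If they were sham-treated, loss of Meis1 and exposure to poly(I:C) cannot be told apart in these arrays. All p-values rest on the spread between these arrays, 1 per pool, and those of limma also borrow spread across all tested probes. Spread between pools cannot be told apart from that of amplification and hybridization.

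Musashi proteins bind RNA and repress the translation of their target messages, among them *Numb* in neural cells. Numb is an adaptor protein that is shared out unequally between daughter cells and dampens Notch signaling by driving endocytosis of the receptor. When a Notch receptor meets its ligand it is cleaved, and its intracellular part enters the nucleus, joins Rbpj and turns on genes such as *Hes1*. In the blood system, *Msi2* is the Musashi gene best known from HSCs and myeloid leukemia, and Notch1 is best known for starting the T lineage. The arrays measure RNA, so they carry no information on the translation of *Numb*.

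All levels below are log2 of an array's processed signal minus the 75th percentile of that array. All differences are Meis1-deficient minus control on the same log2 scale, so a difference of -1 is 2-fold lower. The share of spots well above background was between 54.7% and 57.4% on 3 arrays and 49.2% on Meis1 KO array 2. The 75th percentile of the signal was 88.9 on that array against 144 to 151 on the others, and its log2 values correlated with theirs at 0.891 to 0.916 across probes, which are not independent, against 0.956 to 0.967 among the other 3. Array 1 of each genotype was on slide 1 and array 2 of each on slide 2. The targeted gene had 2 probes. *Meis1* probe A_52_P670612 read 0.28 and 0.24 on the Meis1 KO arrays and 1.04 and 1.47 on the controls, and probe A_52_P26195 read -2.44 and -3.52 against -1.52 and -1.04, Meis1 KO array 2 not being well above background at the latter. The differences were -1.0 (SE 0.43) and -1.70 (SE 0.54), each with an adjusted p of 0.983 by limma. On each slide the Meis1 KO array was the lower at both probes, without overlap, and where they lie relative to the deleted exon was not analysed here. The LSK markers *Kit*, *Ly6a*, *Cd34*, *Slamf1* and *Procr* were well above background on all 4 arrays, and of 6 T lineage markers, 0 were. In bulk RNA, fewer cells of a type and less RNA per cell cannot be told apart.

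The probes are printed for *Msi2*, whose 4 tested probes had 1 direction, and for *Notch1* and *Numb*, which had 2 tested probes each. Each line gives the first 30 of 60 bases as the array files hold them from 5′ to 3′, in lower case with nothing marked. Positions are the array's own annotation on mm9, and whether a probe lies in an exon or an untranslated region was not analysed here.
Msi2 A_52_P628060, chr11:88158089-88158148, minus strand: tccaggcaagactgggcgaagtttctgagt
Msi2 A_51_P221449, chr11:88157513-88157572, minus strand: tattttgtgttgtagaagtgacatacagtt
Msi2 A_52_P780821, chr11:88156481-88156540, minus strand: ggtggggaaaactgacagcttcctgtttgt
Msi2 A_52_P386979, chr11:88153502-88153561, minus strand: gggaaacaaccataattcaaacatggctat
Notch1 A_52_P183088, chr2:26314830-26314889, minus strand: tatgtacttttattttccacagaaacactg
Notch1 A_51_P508510, chr2:26314772-26314830, minus strand: ggcactaggggaaaaacatatctgttccaa
Numb A_51_P325071, chr12:85137089-85140501, minus strand: caaaccagtgacattggtggcaccacagtc
Numb A_52_P26216, chr12:85136400-85136459, minus strand: agcgtacaaatccttctcctaccaaccctt
The *Msi2* probes had a GC content of 36.7% to 55%, the *Notch1* probes of 25% and 38.3%, and the *Numb* probes of 53.3% and 40%.

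*Msi2* was the member whose 4 tested probes all gave a lower mean in Meis1-deficient LSK cells whichever array was left out. *Msi1*, *Numbl* and 1 *Numb* probe gave a higher mean, and *Notch1* and *Notch2* gave means below 0 that were above 0 without Meis1 KO array 2. The study's criteria were a raw p-value below 0.01 together with a change of over 2-fold. By these, limma called 0 of the 14 tested member probes, against 0.736% of all 22006 tested probes, of which 132 were called lower and 30 higher. After adjustment, limma left 0 probes of the whole array below 0.05. An unadjusted p under 0.05 was found by limma at 618 probes (2.81%) and by the methods' t-test at 533 (2.42%, 0 after adjustment), and at 0 of the 14 member probes by either. A limma fit with the slide as a block called 1.92% of all tested probes by the study's criteria and 0 of the 14. The differences of 11 member probes were below 0, compared with 43.8% of all tested probes. They include *Numb* A_51_P325071, whose value on Meis1 KO array 2 was not well above background, and with only probes above background on all arrays 10 were below 0. Without Meis1 KO array 2 only 4 of the 14 stayed below 0, all of them *Msi2* probes, compared with 46.9% of all tested probes. Within both slides, 7 member probes were lower in the Meis1 KO array (all 4 tested *Msi2* probes, both *Notch1* probes and 1 *Notch2* probe), where 20.9% of all tested probes were. The corresponding count for higher on both slides was 3, where 30.3% of all tested probes were. The median difference was -0.64 over the 14 member probes and 0.082 over all tested probes. Several of the 14 probes belong to the same gene and read the same RNA pools, so these counts and the median are not over independent members.

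**Figure D1:**
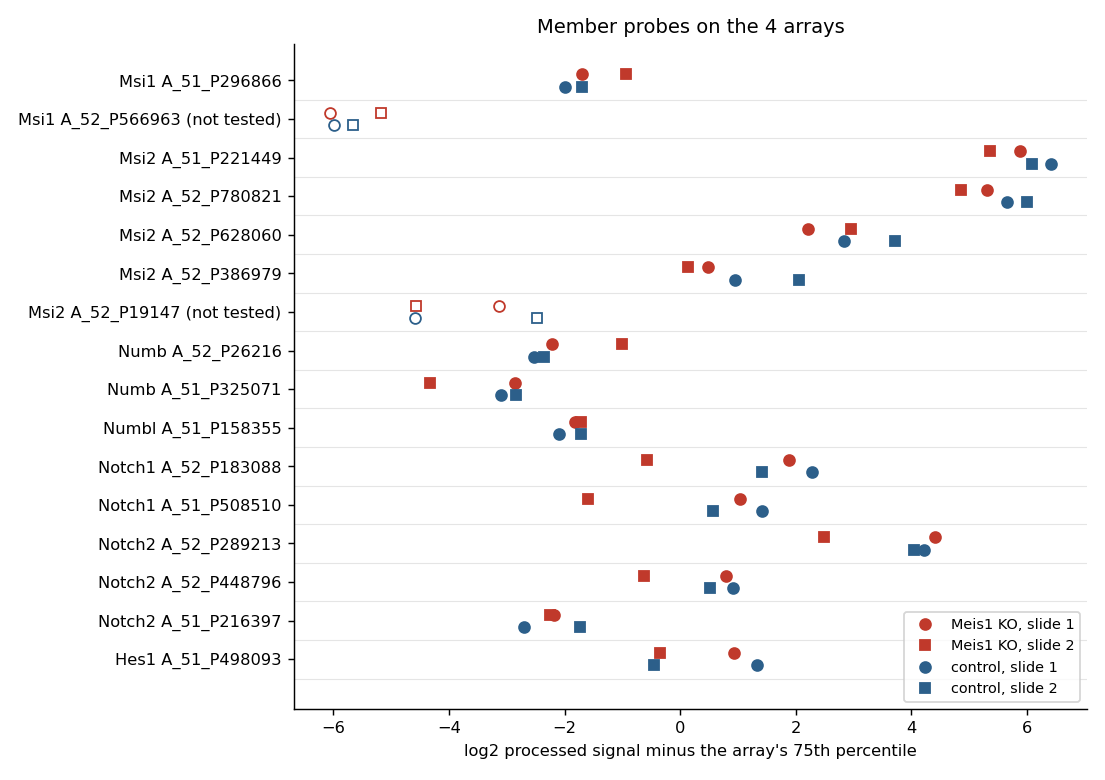
Level of each of the 16 member probes on each array (log2 processed signal minus the array's 75th percentile). Red is Meis1-deficient and blue is control, circles are slide 1 and squares slide 2, and open symbols mark the 2 probes that were not tested. Meis1 KO array 2 (red squares) lies far to the left of the other 3 at both *Notch1* probes, at *Notch2* A_52_P289213 and at *Numb* A_51_P325071.

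*Msi2* encodes Musashi-2. Its brightest probe, A_51_P221449, read 5.88 and 5.36 on the Meis1 KO arrays and 6.42 and 6.09 on the controls. The next, A_52_P780821, read 5.31 and 4.85 against 5.65 and 6.00. At both probes both Meis1 KO arrays lay below both control arrays. Probe A_52_P628060 read 2.21 and 2.96 against 2.83 and 3.72. Here Meis1 KO array 1 was the lowest and Meis1 KO array 2 lay between the controls. Probe A_52_P386979 read 0.48 and 0.14 against 0.95 and 2.05, again without overlap, and control array 2 stood well above the first. Of the 14 member probes, 3 had both Meis1 KO arrays below both controls and all 3 were *Msi2* probes, where 10.8% of all tested probes had this arrangement.

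The differences at these 4 *Msi2* probes, in the same order, were -0.63 (SE 0.45), -0.75 (SE 0.45), -0.69 (SE 0.53) and -1.19 (SE 0.53), with a median of -0.72. As folds these are 1.55, 1.68, 1.62 and 2.28 lower. Every 95% interval reached past 0, from -1.73 to 0.47 at the brightest probe and from -2.47 to 0.096 at A_52_P386979, and limma gave all 4 an adjusted p of 0.983. With the slide as a block, A_52_P386979 had an unadjusted p of 0.0475 and an adjusted p of 0.827 by limma, where 5.93% of all tested probes had an unadjusted p under 0.05. Within slide 1 the 4 differences ran from -0.34 to -0.63, and within slide 2 from -0.72 to -1.90. With each array left out in turn, the median of the 4 stayed between -0.61 and -1.03. The 4 probes read the same RNA pools and are not replicates of each other. Of the marker lists of other cell types, the erythroid one did not overlap between genotypes, with a summed level, in multiples of the 75th percentile, of 101 and 249 on the Meis1 KO arrays and 89 and 23.6 on the controls. Of its 6 markers 4 were well above background on all arrays, *Slc4a1* was so on the 2 arrays of slide 1 only, and *Hbb-b1* gave most of the sum, while 4 of the 6 had a lower mean in Meis1-deficient cells. All 5 plasma cell markers and 3 of 4 megakaryocyte markers (*Pf4* at -1.35, *Itga2b* at -1.65 and *Gp9* at -0.71) also had a lower mean. Their summed levels overlapped, at 5.07 and 25.4 against 26.8 and 13.4 and at 4.30 and 8.36 against 6.86 and 31.5. Only 3 of the 5 plasma cell markers were well above background on all arrays, and of these *Xbp1* differed by -0.058. The part of such cells in the *Msi2* values was not tested. Among 400 genes with at least 4 tested probes, 13 (3.25%) had all of them lower on both slides, *Msi2* included.

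All 4 tested *Msi2* probes belong to the same RefSeq transcript and lie within 4.59 kb of each other. Going toward the 3′ end, the differences were -0.69, -0.63, -0.75 and -1.19. The most 3′ probe, A_52_P386979, thus had the most negative difference, and its interval overlapped those of the other 3. Its distance from the brightest probe was -5.40 and -5.22 on the Meis1 KO arrays and -5.47 and -4.04 on the controls, and from A_52_P628060 it was -1.73 and -2.82 against -1.88 and -1.67. Control array 2 stood apart in the former and Meis1 KO array 2 in the latter. The remaining *Msi2* probe, A_52_P19147, lies 138 kb upstream of the most 3′ probe and is named for another cDNA. It read -3.14 and -4.57 against -4.59 and -2.48, was well above background on 1 array of each genotype and was not tested.

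**Figure D2:**
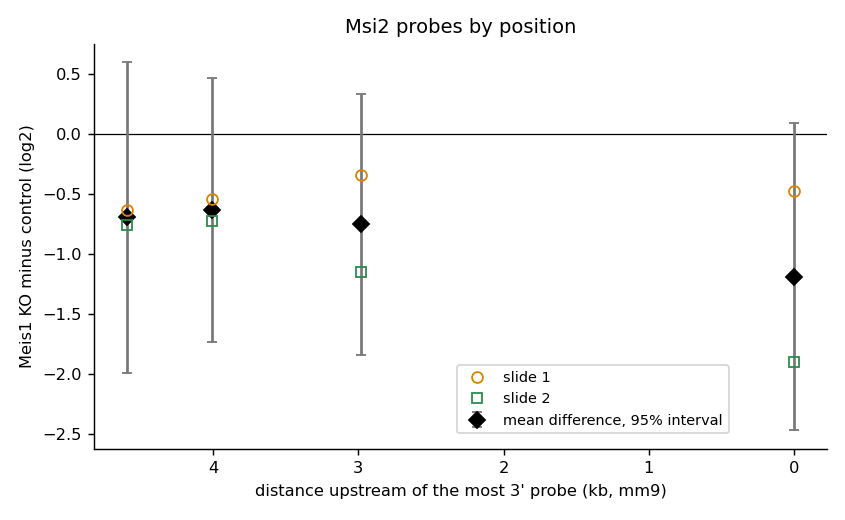
Meis1-deficient minus control difference (log2) of the 4 tested *Msi2* probes against their distance in kb upstream of the most 3′ probe. Diamonds with bars are the mean difference and its 95% interval from limma, circles the difference within slide 1 and squares that within slide 2. All slide values lie below 0 and all intervals cross it.

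*Msi1* encodes Musashi-1, the family member studied mostly in neural and intestinal stem cells. Probe A_51_P296866 (chr5:115904030-115904089) read -1.69 and -0.94 on the Meis1 KO arrays and -2.00 and -1.69 on the controls. The genotypes touched, Meis1 KO array 1 being level with control array 2. The difference was 0.53 (SE 0.48, 95% interval -0.63 to 1.69, adjusted p = 0.983 by limma), 0.31 within slide 1 and 0.75 within slide 2. The other probe, A_52_P566963, was well above background on 0 arrays, with values between -6.05 and -5.18, and was not tested.

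*Numb* had 2 probes for the same transcript, and they did not give the same picture. Probe A_52_P26216 read -2.21 and -1.01 on the Meis1 KO arrays and -2.52 and -2.36 on the controls. Both Meis1 KO arrays lay above both controls, as was the case at 16% of all tested probes, and the second lay far above the first. The difference was 0.83 (SE 0.54, 95% interval -0.49 to 2.14, adjusted p = 0.983 by limma), with 0.30 within slide 1 and 1.35 within slide 2. Probe A_51_P325071 read -2.86 and -4.32 against -3.10 and -2.84. Meis1 KO array 2 was the lowest of the 4 and not well above background, while the other 3 arrays lay close together. The difference was -0.62 (SE 0.59, adjusted p = 0.983 by limma), with 0.24 within slide 1 and -1.48 within slide 2. A_52_P26216 minus A_51_P325071 was 0.65 on Meis1 KO array 1 and 0.59 and 0.48 on the controls. On Meis1 KO array 2 the dimmer probe has only an upper bound, so no distance is given there, and the slide 2 and mean differences of A_51_P325071 rest on the same value. The 60 bases of A_51_P325071 are annotated to a span of 85137089 to 85140501, so they align on either side of a gap in the genome. Without Meis1 KO array 2 the differences were 0.23 at A_52_P26216 and 0.11 at A_51_P325071.

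*Numbl*, the Numb-like paralog, had 1 probe, A_51_P158355 (chr7:28066788-28066850), which read -1.82 and -1.71 against -2.10 and -1.72 in controls. The 4 arrays lay close together, with control array 1 lowest. The difference was 0.14 (SE 0.43, 95% interval -0.91 to 1.19, adjusted p = 0.987 by limma), of which 0.28 was seen within slide 1 and 0.007 within slide 2. It was -0.23 without scaling between arrays and -0.049 without control array 1. The interval spans changes in either direction, so it does not show that *Numbl* was the same in both genotypes.

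**Figure D3:**
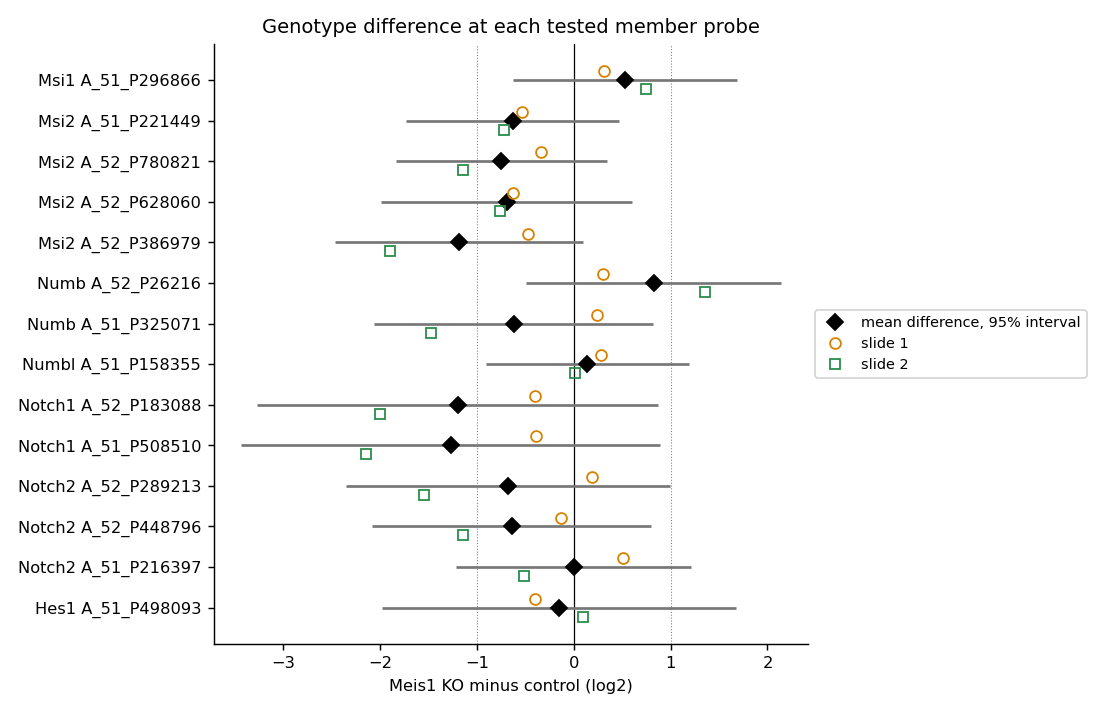
Meis1-deficient minus control difference (log2) at each of the 14 tested member probes, with the mean and 95% interval from limma (diamond and bar) and the difference within slide 1 (circle) and slide 2 (square). Dotted lines mark 2-fold. All intervals cross 0, and both slides lie on the same side of 0 at the 4 *Msi2* probes, at both *Notch1* probes, at *Notch2* A_52_P448796, at *Msi1*, at *Numbl* and at *Numb* A_52_P26216.

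*Notch1* encodes the receptor that acts at the branch point to the T lineage. Probe A_52_P183088 read 1.88 and -0.58 on the Meis1 KO arrays and 2.28 and 1.42 on the controls. Probe A_51_P508510, which starts where the first ends and shares 1 base position with it, read 1.04 and -1.59 against 1.42 and 0.56. At both, Meis1 KO array 2 was far below the other 3, and the first lay between the 2 controls. The differences were -1.20 (SE 0.85, 95% interval -3.27 to 0.87) and -1.27 (SE 0.89, 95% interval -3.44 to 0.89), each with an adjusted p of 0.983 by limma. Within slide 1 they were -0.40 and -0.39, and within slide 2 -2.00 and -2.15. With the slide as a block the unadjusted p was 0.0507 and 0.0446 and limma's adjusted p 0.846 and 0.819. In that limma fit 2 of the 14 member probes and 5.93% of all tested probes had an unadjusted p under 0.05. Without Meis1 KO array 2 the differences were 0.032 and 0.043. Without the first they were -2.43 and -2.58 and met the study's criteria, at a setting in which 10.2% of all tested probes did.

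The readings of *Notch1* were close together within each array. Probe A_51_P508510 is printed in 10 spots, and their SD was 0.073 and 0.183 on the Meis1 KO arrays and 0.043 and 0.066 on the controls. On Meis1 KO array 2 the 10 spots ranged from -1.93 to -1.28, and on control array 2, on the same slide, from 0.46 to 0.63. The spots of Meis1 KO array 1, 0.90 to 1.11, lay between those of the 2 control arrays. A_51_P508510 minus A_52_P183088 was -0.85 and -1.01 on the Meis1 KO arrays and -0.85 and -0.86 on the controls. Both probes thus gave the same pattern over the arrays. The 2 Meis1 KO arrays differed by 2.46 and 2.63 at these probes and the 2 controls by 0.86 at each, with the array of slide 1 the higher in both genotypes. Spots of 1 array share its RNA, its labeling and its hybridization.

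**Figure D4:**
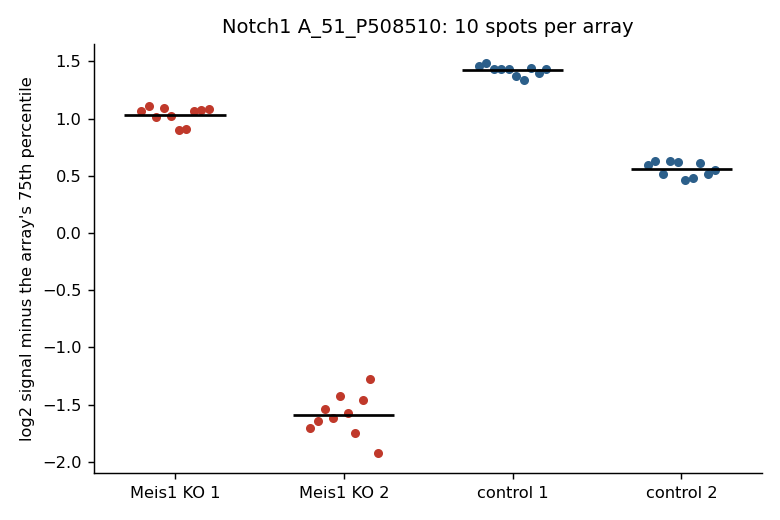
The 10 spots of *Notch1* probe A_51_P508510 on each array (log2 processed signal minus the array's 75th percentile), red for Meis1-deficient and blue for control, with the mean of the spots as a line. The spots of an array cluster tightly, and those of Meis1 KO array 2 lie below all others.

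*Notch2*, the receptor known for marginal zone B cells and for early progenitors, had 3 probes along 1 transcript. The brightest and most 3′, A_52_P289213 (chr3:97953914-97953973), read 4.41 and 2.49 on the Meis1 KO arrays and 4.22 and 4.05 on the controls. Probe A_52_P448796 read 0.79 and -0.63 against 0.91 and 0.52. Meis1 KO array 2 was again the lowest at both, while the first was the highest of all at A_52_P289213 and between the controls at A_52_P448796. Probe A_51_P216397, which lies 2709 bases upstream of the most 3′ probe, read -2.19 and -2.25 against -2.70 and -1.73. Here both Meis1 KO arrays lay between the 2 control arrays. The differences were -0.68 (SE 0.69), -0.64 (SE 0.59) and -0.0017 (SE 0.50), with adjusted p-values of 0.983, 0.983 and 0.999 by limma. At A_52_P289213 the difference was 0.19 within slide 1 and -1.55 within slide 2, and without Meis1 KO array 2 it was 0.28. At A_52_P448796 these values were -0.13, -1.15 and 0.072. Without Meis1 KO array 1, which leaves 1 Meis1 KO array, the difference at A_52_P289213 was -1.64.

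*Hes1* encodes a transcriptional repressor that Notch signaling turns on directly. Its probe, A_51_P498093 (chr16:30065983-30066278), read 0.93 and -0.35 on the Meis1 KO arrays and 1.33 and -0.45 on the controls. Both arrays of slide 1 lay above both of slide 2, and the genotypes overlapped. The difference was -0.15 (SE 0.75, 95% interval -1.98 to 1.67, adjusted p = 0.99 by limma), with -0.40 within slide 1 and 0.099 within slide 2, and it was 0.49 without Meis1 KO array 2 and 0.74 without control array 1. With the slide as a block its standard error was 0.47 and its adjusted p 0.98 by limma. Array 1 minus array 2 was 1.28 in Meis1-deficient cells and 1.78 in controls. Both arrays of slide 1 were above both of slide 2 at 5 of the 14 member probes (*Hes1*, both *Notch1* probes, *Notch2* A_52_P289213 and *Notch2* A_52_P448796), where 21.1% of all tested probes were. The reverse held at 3, where 27.6% of all tested probes were. The summed level of 8 granulocyte and monocyte markers split by slide as well, at 177 and 190 on slide 1 and 114 and 68.9 on slide 2, and 7 of the 8 were well above background on all 4 arrays. That of 8 B lineage markers did so too, at 12 and 18.7 against 8.74 and 7.60. The sum of 4 megakaryocyte markers split the other way, at 4.30 and 6.86 against 8.36 and 31.5. So did that of 6 T lineage markers, at 0.266 and 0.396 against 0.428 and 0.751, of which 0 were well above background on all arrays. The erythroid sum overlapped between slides, while its gene *Hba-a1* was higher on slide 1 by 3.88 in Meis1-deficient cells and 4.81 in controls and *Epor* was lower there. The part of such cells in the *Notch1* and *Hes1* values was not tested.

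A list of 77 genes of the Notch pathway, cell polarity and Musashi partners was described around the members, each gene at its brightest tested probe. Of the 62 tested, 35 were lower and 27 higher in Meis1-deficient cells, where 4889 of the 12175 genes with a symbol were lower. Limma called 1 of them lower by the study's criteria and 0 higher, where 0.6% and 0.136% of all tested probes were. The 1 was *Dlk1*, which passed the filter on dim probes through the controls alone, so the count is no support for a change in the list. The median was -0.038 over the list and 0.13 over those 12175 genes, and the list's was 0.045 with median scaling and 0.037 and 0.0035 without Meis1 KO array 1 or 2. With the slide as a block, 2 list genes were called lower by limma (*Dlk1* and *Hey1*) and 0 higher, where 1.35% and 0.573% of all tested probes were.

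**Figure D5:**
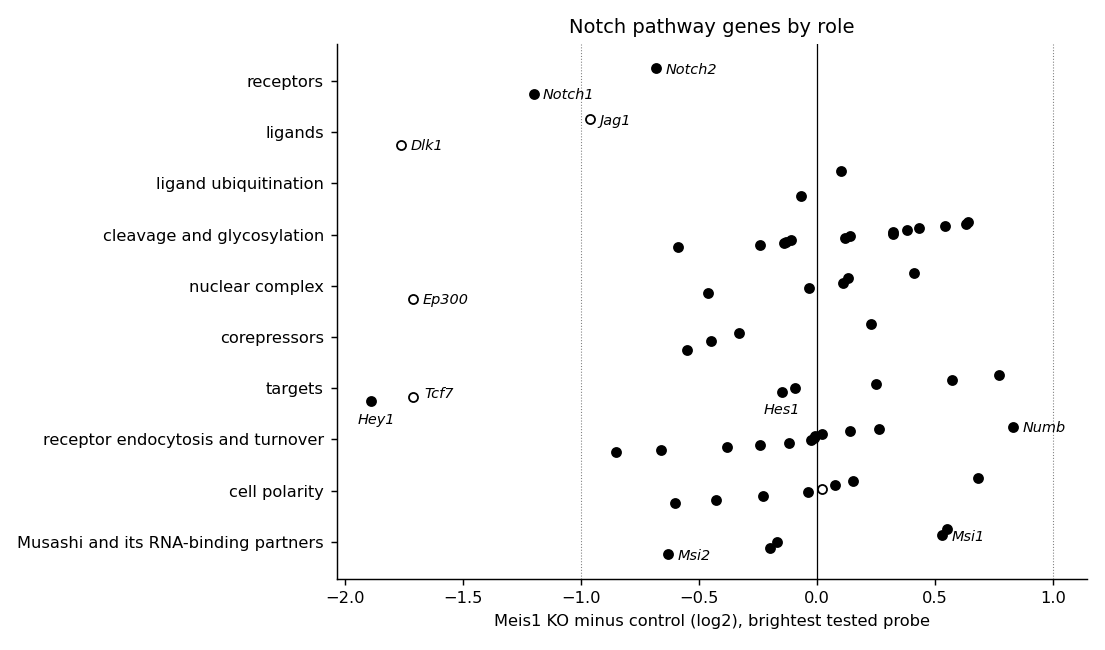
Meis1-deficient minus control difference (log2) at the brightest tested probe of 62 genes, grouped by role. Filled circles are well above background on all 4 arrays and open circles on fewer, dotted lines mark 2-fold, and all members but *Numbl* and the 5 other genes furthest to the left (*Hey1*, *Dlk1*, *Ep300*, *Tcf7* and *Jag1*) are named. Most genes lie within 2-fold.

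Among the ligands, *Dlk1*, which encodes a Delta-like protein without the domain that activates Notch, was the gene called. It read -4.85 and -5.53 on the Meis1 KO arrays and -3.30 and -3.55 on the controls. Both Meis1 KO arrays were below both controls and neither was well above background. Measured against the dimmest probes that were, *Dlk1* was at least 1.21-fold lower. Without Meis1 KO array 1 this ratio was 0.871, which is no bound, and with another array left out it was 1.11 to 1.68. The fitted difference was -1.76 (SE 0.47, adjusted p = 0.983 by limma). The criteria were met without and with the slide as a block, but the difference is set against values not above background, and the bound itself is under 2-fold. With median, quantile or no scaling, normexp correction, no filter, the methods' t-test or an intensity trend, 0 list genes met them. Without Meis1 KO array 1, 6 of the 62 did, where 10.2% of all tested probes did, and with any one of the other 3 arrays left out 0 did. *Jag1* was not well above background on Meis1 KO array 2, on which its fitted difference of -0.96 (SE 0.85) partly rests, and it differed by -0.70 within slide 1. The ligands *Dll1*, *Dll3*, *Dll4* and *Jag2* and the receptors *Notch3* and *Notch4* were too dim to be tested, which says nothing of ligand on the cells around LSK cells.

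Among the targets, *Hey1*, a relative of *Hes1*, had the widest spread over arrays. It read 3.77 and -0.68 on the Meis1 KO arrays and 5.22 and 1.66 on the controls. Both arrays of slide 1 stood above both of slide 2, by 4.45 in Meis1-deficient cells and 3.56 in controls, and within each slide the Meis1 KO array was the lower. The difference was -1.89 (SE 1.67, adjusted p = 0.983 by limma, and 0.337 with the slide as a block), with -1.45 within slide 1 and -2.34 within slide 2. *Tcf7*, a T lineage transcription factor gene, had a fitted difference of -1.71 (SE 0.87) that rests on Meis1 KO array 2, where it was not well above background, and it differed by -0.54 within slide 1. *Hes5* differed by -0.093 (SE 0.42) and *Ptcra*, which encodes the pre-T cell receptor alpha chain, by 0.77 (SE 0.64). *Nrarp*, a feedback inhibitor of Notch, differed by 0.57 (SE 0.59). Of the 7 tested targets 4 were lower and 3 higher.

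Of 14 tested genes that cleave or glycosylate the receptor, 9 were higher and 5 lower, with a median of 0.23 and 0 called by limma, where 7286 of the 12175 genes were higher. Here *Aph1a*, a subunit of gamma-secretase, differed by 0.64 (SE 0.46) and *Furin*, the protease that matures the receptor, by -0.59 (SE 0.59). In the nuclear complex 3 of 6 were lower, with *Kat2b*, an acetyltransferase, at -0.46 (SE 0.47), *Maml2*, a coactivator, at 0.11 (SE 0.42) and *Rbpj*, the DNA-binding partner of cleaved Notch, at 0.41 (SE 0.47). The acetyltransferase gene *Ep300* had a fitted difference of -1.71 (SE 0.84) that likewise rests on Meis1 KO array 2, where it was not well above background, and it differed by -0.31 within slide 1. Of 4 corepressors 3 were lower, and *Spen* differed by 0.23 (SE 0.45). The ligand ubiquitin ligases *Mib1* and *Mib2* differed by -0.07 (SE 0.43) and 0.10 (SE 0.49).

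Of 12 genes of receptor endocytosis and turnover, *Numb* and *Numbl* among them, 8 were lower and 4 higher. *Ap2a2*, a subunit of the AP-2 adaptor that Numb binds, differed by -0.85 (SE 0.58), with -0.13 within slide 1 and -1.57 within slide 2. Of 8 tested polarity genes 4 were lower and 4 higher, with *Pard6g* at -0.60 (SE 0.72) and *Llgl1* at 0.15 (SE 0.53). Of the RNA-binding partners, *Syncrip* differed by 0.55 (SE 0.58), with 0.00049 within slide 1 and 1.09 within slide 2, and the poly(A)-binding protein genes *Pabpc1* and *Pabpc4* by -0.20 (SE 0.46) and -0.17 (SE 0.46). Limma called 0 genes in these 3 roles with or without the slide as a block.

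The genes whose pattern over the 4 arrays lay nearest to that of the brightest *Msi2* probe were found by the Euclidean distance of log2 values, each centered on its own mean, over 18860 probes well above background on all arrays. They were *Fbxo10* at 0.081, *Fam234a* at 0.090, *Abi2* at 0.093, *Ubald1* at 0.097 and *Camsap1* at 0.117. Their differences were between -0.53 and -0.68, and values near that of the *Msi2* probe follow from how the genes were chosen. With 4 arrays, such nearness describes these arrays only.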

How the data were processed

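LSK cells of 2 Meis1-deficient and 2 control pools were profiled on 1-color arrays from 10 ng of amplified, Cy3-labeled RNA. The authors deposited the spot intensities of Feature Extraction (9.5.3.1 in the file headers, 9.1 in the submitters' processing notes), background-subtracted and detrended but not scaled between arrays. In 25.2% to 33.2% of spots per array a surrogate stands in for a signal not above background. The deposited series table repeats these intensities. The authors' own analysis used GeneSpring.

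Here control spots and those marked as outliers were dropped, spots of a probe averaged as log2, and each array's 75th percentile subtracted. Tests were limited to probes measured on all 4 arrays that stood well above background on both arrays of either genotype. The genotype comparison used limma 3.58.1 (lmFit, then eBayes; R 4.3.3), genotype being the only term, with Benjamini-Hochberg adjustment over all 22006 tested probes. The number of arrays limits the precision, and with 2 arrays per genotype the smallest two-sided p of an exact permutation test is 0.333. Groups follow the sample labels. The same replicate number is the same slide, from the file headers, and deviations of same-numbered arrays correlated at 0.266, so the slide as a block was an alternative.

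Members and gene lists were chosen with earlier results of these data known. Named were all member probes, list genes called, in each role the gene with the largest fall and rise among those above background on all 4 arrays and alike in sign on both slides, and the 5 genes nearest to *Msi2*. Some genes that the rule or a marker list holds are not reported here. *Jag1*, *Ep300*, *Tcf7*, *Hes5*, *Nrarp*, *Rbpj*, *Pabpc1*, *Pabpc4*, *Xbp1* and the single erythroid genes were added after their values were seen. Gene names are the array's, updated through RefSeq accessions, which matched 26690 probes and 12 of the 16 member probes. A fold for a probe dim on both arrays of a genotype is a bound. On simulated arrays limma recovered 92% of 200 probes (of 22006) given a log2 change of 3, 0 of them in the wrong direction. It called 200 unchanged probes and gave 0 of the changed probes an adjusted p under 0.05. That change is larger than every member difference and no slide effect was simulated, so the 92% does not apply to changes of their size. The alternatives were median, quantile and no scaling (the last chosen after the data were seen), normexp with an offset of 50, the series table, other filters on dim probes, outlier spots kept, the block, an intensity trend, the methods' t-test, and each array left out. Marker lists of B lineage, plasma, erythroid and megakaryocyte cells had 2 of 8, 3 of 5, 4 of 6 and 4 of 4 markers above background on all arrays, with 6, 5, 4 and 3 of them at a lower mean in Meis1-deficient cells, and all summed levels but the erythroid one, which rests mostly on *Hbb-b1*, overlapped between genotypes.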

Additional observations from a re-analysis of the deposited data

How the results depend on the processing

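Of 209 values of the 14 tested member probes under the alternatives, 191 kept their direction and their side of the study's criteria, 15 changed sign and 3 met the criteria. The 6 probes without a change of sign were the 4 of *Msi2*, *Msi1* and *Numb* A_52_P26216. *Numb* A_51_P325071 was 0.18 with normexp and -1.35 to 0.11 leaving out an array. *Numbl* was -0.23 without scaling and -0.049 to 0.34 leaving out an array. Likewise the *Notch1* probes ran from -2.43 to 0.032 and from -2.58 to 0.043, *Notch2* A_52_P289213 from -1.64 to 0.28, *Notch2* A_52_P448796 from -1.35 to 0.072, *Notch2* A_51_P216397 from -0.49 to 0.48 and *Hes1* from -1.04 to 0.74. The signs of *Notch1* and of the 2 brighter *Notch2* probes turned without Meis1 KO array 2, that of *Hes1* without it (0.49) or control array 1, and that of *Notch2* A_51_P216397 without it (0.03) or control array 2, and also with median (0.081) and quantile scaling (0.048) and normexp (0.19). The causes were not tested.

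Leaving out an array, the member probes below 0 numbered 4 to 11. The 4 arose without Meis1 KO array 2, where 46.9% of all tested probes were below 0. The member values that met the criteria all arose without Meis1 KO array 1. There limma pools the spread and gives the single remaining array that of the other genotype, so they are no support for a change. The number of Notch list genes called was 0 with median, quantile and no scaling, normexp, no filter, the filter on all 4 arrays, the methods' t-test and the intensity trend, 2 with the slide as a replicate block, and 0 to 6 leaving out an array. Without scaling the *Msi2* median was -1.10, the Notch list median -0.41 and the median of all tested probes -0.30. Over all probes, 132 were called lower and 30 higher. The counts were 45 and 2 with normexp, 44 and 10 with the filter on all 4 arrays, 297 and 126 with the replicate block, 23 and 7 by the methods' t-test, 85 and 16 with the intensity trend, and 61 to 1733 and 34 to 516 leaving out an array. Higher calls were 101 with no filter and 14 without scaling. The share of calls that were lower was 81.5%, and 95.7% with normexp, 65.8% with no filter, 70.2% with the block, and 54.5% and 60.5% without control array 1 or 2. With the block limma's adjusted p was under 0.05 at 34 probes, 0 of them members. The pairing by slide changed the call of *Hey1* and of 0 member probes. The number of pools limits the precision, and the part of the dim signal of Meis1 KO array 2 was not tested.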

Other observations

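A further probe, A_52_P517905, is described as *Numb* in the array's annotation but carries an Ensembl transcript name, so it was not among the members. It read -4.90 and -5.21 on the Meis1 KO arrays and -3.33 and -3.72 on the controls. It was well above background on 1 array, control array 1, so the order of the other 3 says nothing, and it was not tested.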
